A study of Mus musculus with 12 samples.

Results

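The negative limb of the circadian clock and its PAR bZIP output factors were followed in mouse left ventricle as a list of 9 named genes: the period genes Per1, Per2 and Per3, the cryptochromes Cry1 and Cry2, the repressor Ciart, and the transcription factors Dbp, Tef and Hlf. The genes were taken by name from the 38293 genes of the deposited table, and 9 of the 9 passed the filter on low counts that left 14770 genes for testing. Polyadenylated RNA was sequenced from the left ventricles of healthy C57BL/6J mice 3 days after surgery in which, under anesthesia, the thorax was opened and 2 volumes of 10 µl were injected into the heart muscle. The antimiR-195 group received Upy-PEG, a synthetic hydrogel, loaded with antimiR-195, an inhibitor of the microRNA miR-195. The Upy-PEG group received the hydrogel with no drug, and the PBS group received saline by the same operation. Each of the 3 groups has 4 libraries, and the labels give no uninjected heart, no hour of tissue collection, no sex and no batch.

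In the mammalian clock the activators CLOCK and BMAL1 (the product of Arntl) bind E-box sequences and switch on the Per, Cry and Ciart genes and the PAR bZIP genes. PER and CRY proteins assemble into complexes that return to the nucleus and silence CLOCK and BMAL1, and Ciart, also called CHRONO, is a further repressor that binds BMAL1. DBP, TEF and HLF bind D-box sequences and carry the rhythm to metabolic genes, and in the heart, as in other peripheral organs, their mRNAs run roughly opposite in phase to Arntl.

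Library totals were 22353241 to 25589250 gene counts in antimiR-195, 25018689 to 28249454 in Upy-PEG and 24105867 to 30278621 in PBS, and 18668 to 19740 genes had at least 1 count. Replicates 2 and 3 of antimiR-195 stood apart in a bias by gene length, in CPM, counts scaled to a common library total. Relative to each gene's mean over the 12 libraries, log2 CPM changed by -0.26 and -0.15 per doubling of gene length. The change was -0.05 to 0.13 in the other libraries. The members' edgeR fold changes that involve antimiR-195 are given with and without antimiR-195 replicates 2 and 3. So are the counts of members lower at an unadjusted p under 0.05 or wholly below the other group. For both hydrogel groups pooled, this holds for these counts and for the fold changes of Per1 and Dbp only. The spreads, the correlations, the counts by library and the calls by DESeq2, by limma and with no filter include these replicates. The 5 cardiomyocyte markers were present in every library, which fits the tissue label, and their summed level was 54252 to 60873 CPM in antimiR-195, 43310 to 55785 CPM in Upy-PEG and 58110 to 65795 CPM in PBS. The 5 macrophage markers, none at 0 in any library, summed to 528 to 1010 CPM in antimiR-195, 765 to 1216 CPM in Upy-PEG and 375 to 594 CPM in PBS, so the Upy-PEG libraries lay wholly above PBS for macrophage markers and wholly below it for cardiomyocyte markers. The 4 fibroblast markers summed to 1290 to 2024 CPM in antimiR-195, 1698 to 3793 CPM in Upy-PEG and 1343 to 1913 CPM in PBS, and the 2 erythroid markers to 60.3 to 142 CPM in antimiR-195, 30.4 to 66.1 CPM in Upy-PEG and 56.8 to 170.3 CPM in PBS. Upy-PEG replicate 1 had the highest fibroblast and the lowest cardiomyocyte and erythroid sums of the 12 libraries. The 3 atrial markers summed to 6.73 to 75.7 CPM in antimiR-195, 6.41 to 36.7 CPM in Upy-PEG and 9.22 to 32.7 CPM in PBS. The highest atrial sum was that of antimiR-195 replicate 2. In such bulk tissue, fewer cells of a type and less RNA per cell cannot be told apart, and the part of these marker differences in the clock gene values was not tested.

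Per1, Ciart, Tef and Per3 were the members whose level was lower in each of the 8 hydrogel libraries than in any PBS library, so their promoters are shown. The sequences are from RefSeq on build GRCm38.p6 and run from 250 bases before to 50 bases after the annotated start of transcription, 5′ to 3′ on the gene's strand. Capitals mark an E-box (CACGTG) in Per1, Ciart and Tef and a D-box (TTATGTAA, or TTACGTAA) in Per3. RefSeq gives 2 starts each for Per1 and Tef, and the more upstream one is printed. The other Per1 window, chr11:69099902-69100201, holds none of the motifs searched, and the other Tef window holds 1 E-box.
Per1, chr11:69098699-69098998, plus strand: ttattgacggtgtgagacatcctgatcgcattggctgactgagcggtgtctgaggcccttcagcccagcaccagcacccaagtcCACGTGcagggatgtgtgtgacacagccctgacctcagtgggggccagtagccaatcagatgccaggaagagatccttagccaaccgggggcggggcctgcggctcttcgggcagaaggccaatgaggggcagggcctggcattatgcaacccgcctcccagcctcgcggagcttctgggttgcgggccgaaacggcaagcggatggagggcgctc
Ciart, chr3:95882179-95882478, minus strand: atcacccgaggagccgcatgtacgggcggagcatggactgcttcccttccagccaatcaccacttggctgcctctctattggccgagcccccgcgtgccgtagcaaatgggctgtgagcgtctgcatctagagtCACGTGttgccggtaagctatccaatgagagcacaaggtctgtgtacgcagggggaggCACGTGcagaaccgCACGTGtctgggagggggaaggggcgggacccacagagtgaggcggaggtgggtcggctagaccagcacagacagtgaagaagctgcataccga
Tef, chr15:81802423-81802722, plus strand: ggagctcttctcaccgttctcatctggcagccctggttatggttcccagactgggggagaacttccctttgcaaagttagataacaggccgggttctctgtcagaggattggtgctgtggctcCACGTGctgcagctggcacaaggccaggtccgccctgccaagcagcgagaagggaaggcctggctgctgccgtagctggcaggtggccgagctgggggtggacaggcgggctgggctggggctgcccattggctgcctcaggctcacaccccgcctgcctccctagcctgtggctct
Per3, chr4:151044616-151044915, minus strand: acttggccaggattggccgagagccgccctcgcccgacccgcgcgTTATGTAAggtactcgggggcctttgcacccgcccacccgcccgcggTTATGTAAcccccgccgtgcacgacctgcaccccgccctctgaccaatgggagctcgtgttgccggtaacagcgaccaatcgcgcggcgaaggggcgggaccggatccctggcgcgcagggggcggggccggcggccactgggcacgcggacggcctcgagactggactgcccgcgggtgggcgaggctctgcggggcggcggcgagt
The Ciart window holds 3 E-boxes, which begin 116, 58 and 44 bases before the start, and the Per1 and Tef windows hold 1 each, at 166 and 127 bases before it. The Per3 window holds 2 D-boxes, at 205 and 158 bases before the start. RefSeq promoters were matched for 8 of the 9 members. Read on both strands, an E-box lay in 4 of these 8 members (Ciart, Cry1, Per1 and Tef), against 8.09% of 27025 genes. A D-box lay in 1 of 8, against 1.23% of genes, and the cAMP response element TGACGTCA in 1 of 8, Hlf, against 2.03%. A match in such a window is a description of its letters and no evidence of binding.

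The mature miR-195 and the stretches of member 3′ untranslated regions that pair with its seed are shown because miR-195 is the molecule that the drug is directed at. Capitals mark the seed (bases 2 to 8) in the microRNA and the complementary TGCTGCT in the mRNAs, with sequences from RefSeq for the microRNA and from the GRCm38 transcripts of GENCODE for the sites.
mmu-miR-195a-5p: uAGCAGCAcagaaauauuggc
Cry2, first site: ctgtgtgcccaTGCTGCTtatgtcagcct
Cry2, second site: ccagcaagtccTGCTGCTacccagccagg
Per2: acatctatctgTGCTGCTggtcctcagat
Per3: ccggcaatctcTGCTGCTgtgggctggtc
Such a site was found in 3 of the 9 members, against 20.4% of 20952 genes with an annotated 3′ untranslated region, and the second Cry2 site is the only one of the 4 followed by an A. In antimiR-195 against Upy-PEG, the group labels differ by the drug alone. The log2 fold changes of these 3 members there were -0.19 for Cry2, -0.14 for Per2 and -0.07 for Per3. None was past the threshold in edgeR (adjusted p from 0.568 to 0.896).

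Against PBS, each of the 9 genes had a lower mean level in both hydrogel groups, with log2 fold changes from -1.31 to -0.18 in antimiR-195 and from -0.79 to -0.47 in Upy-PEG. Of all genes tested, 49.2% were lower in antimiR-195 and 55.3% in Upy-PEG. Per1 differed most in antimiR-195, at 0.403 times the PBS level. No member passed an adjusted p of 0.05 in edgeR's quasi-likelihood test, in which all 12 libraries share 1 estimate of spread. Against Upy-PEG without drug, the antimiR-195 libraries overlapped the Upy-PEG libraries for 9 of 9 members. Of all genes, 2.46% lay wholly below Upy-PEG there. The share wholly above is not given here, so the share of all genes that overlapped is not known. The values by library follow, in CPM scaled by TMM (a correction for library composition), by the genes' roles.

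**Figure D1:**
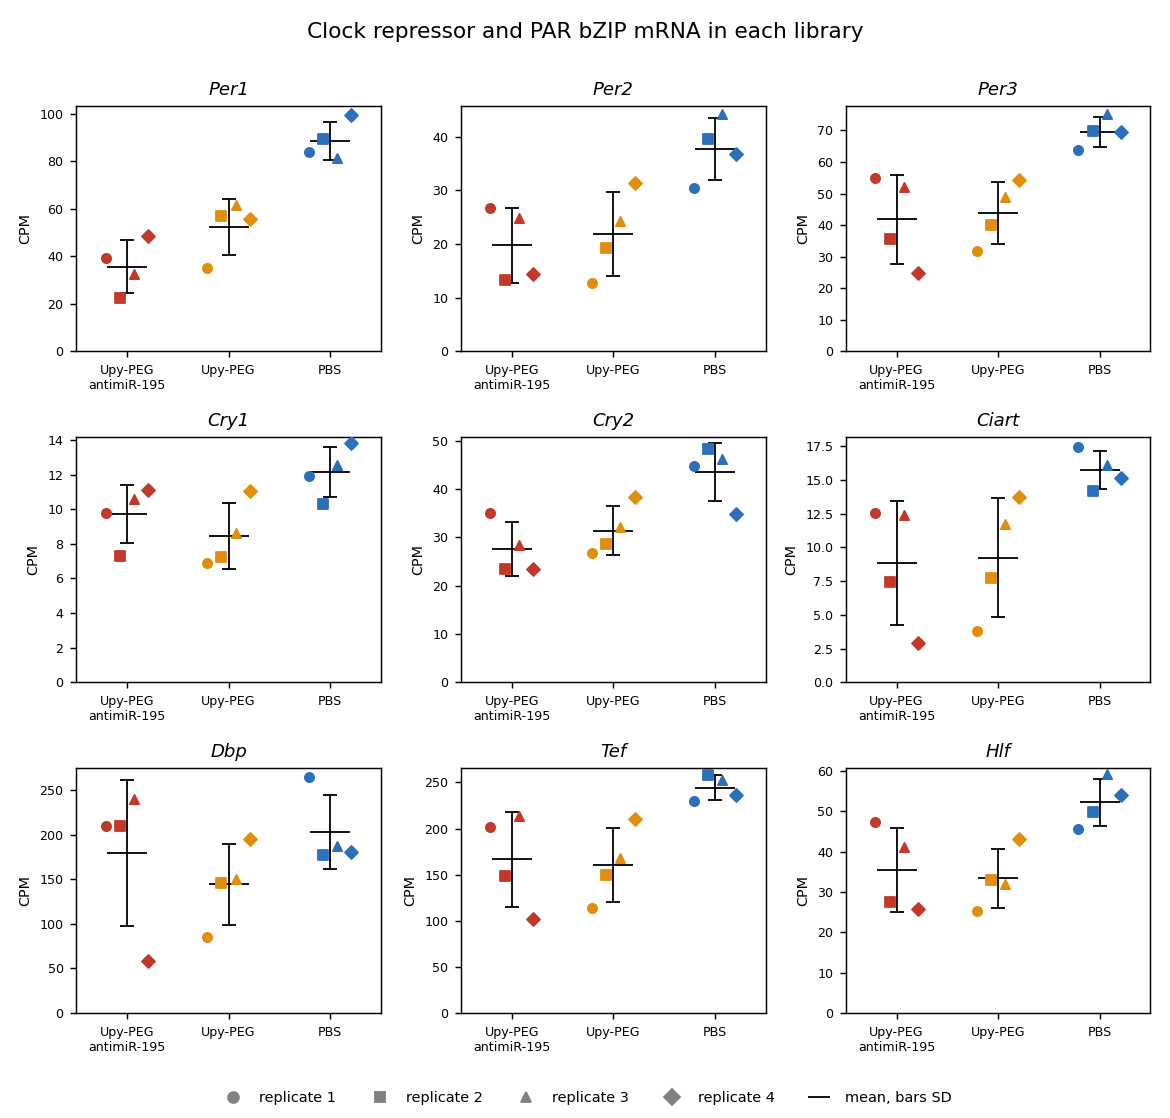
Level of each of the 9 genes in CPM (vertical axes, from 0) in every library of the antimiR-195 hydrogel, Upy-PEG and PBS groups, with the mean and SD of 4 libraries as bars and a marker shape for each replicate. For Per1, Per3, Ciart and Tef, the 8 hydrogel libraries all lie below the 4 PBS libraries.

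Per1 (ENSMUSG00000020893, chr11:69095217-69109960 on GRCm38, plus strand) encodes a PER protein whose gene also answers quickly to cAMP and glucocorticoid signals. It had 39.2, 22.5, 32.4 and 48.5 CPM in antimiR-195 libraries 1 to 4, 35.1, 57.1, 61.5 and 55.7 CPM in Upy-PEG libraries and 83.8, 89.4, 81.3 and 99.3 CPM in PBS libraries. Neither hydrogel group overlapped PBS, and antimiR-195 overlapped Upy-PEG only through Upy-PEG replicate 1. The log2 fold change against PBS was -1.31 ± 0.21 (SE) in antimiR-195, with an adjusted p of 0.235 in edgeR, and its unadjusted p of 2.7e-05 was the lowest of the 14770 genes in that comparison. The members were chosen with earlier results of these data known, so this rank is no independent support. The Upy-PEG minus PBS log2 fold change of Per1 was -0.76 ± 0.21 (edgeR, adjusted p = 0.123). Per1 was also the member that differed most between antimiR-195 and Upy-PEG, by -0.55 ± 0.21 on the log2 scale, with an adjusted p of 0.364 in edgeR. That difference was -0.25 without antimiR-195 replicates 2 and 3. Without them the difference of Per1 against PBS was -1.004, with an unadjusted p of 0.000272 in edgeR. Over the 22 alternatives, the adjusted p of Per1 against PBS ran from 4.8e-05 to 0.791 in antimiR-195 and from 0.0158 to 0.365 in Upy-PEG, and was under 0.05 in 3 and 5 of them (edgeR, DESeq2 and limma).

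Per2 (ENSMUSG00000055866, chr1:91415982-91459324, minus strand) encodes the PER protein on which rhythm in mice depends most. It had 26.7, 13.3, 24.9 and 14.4 CPM in antimiR-195, 12.7, 19.2, 24.2 and 31.3 CPM in Upy-PEG and 30.4, 39.7, 44.2 and 36.9 CPM in PBS. The antimiR-195 libraries all lay below PBS, and Upy-PEG replicate 4 alone of its group reached above PBS replicate 1. The log2 fold changes of Per2 were -0.93 ± 0.27 in antimiR-195 and -0.79 ± 0.27 in Upy-PEG against PBS (edgeR, adjusted p = 0.253 and 0.204).
Per3 (ENSMUSG00000028957, chr4:151003652-151044665, minus strand), the PER gene least needed for the rhythm itself, had 54.8, 35.5, 52.2 and 24.8 CPM in antimiR-195, 31.9, 40.0, 48.9 and 54.2 CPM in Upy-PEG and 63.7, 69.6, 75.2 and 69.4 CPM in PBS. Both hydrogel groups lay wholly below PBS for Per3, and the hydrogel groups overlapped each other. Its log2 fold changes against PBS were -0.73 ± 0.22 in antimiR-195 and -0.67 ± 0.22 in Upy-PEG (edgeR, adjusted p = 0.253 and 0.187).

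Among the other repressors, Cry1 (ENSMUSG00000020038, chr10:85131700-85185064, minus strand) encodes the stronger cryptochrome repressor of CLOCK and BMAL1. It had 9.79, 7.32, 10.6 and 11.1 CPM in antimiR-195, 6.87, 7.24, 8.65 and 11.04 CPM in Upy-PEG and 11.9, 10.3, 12.5 and 13.8 CPM in PBS. Both hydrogel groups overlapped PBS, at PBS replicate 2. The log2 fold changes of Cry1 against PBS were -0.32 ± 0.17 in antimiR-195 and -0.53 ± 0.17 in Upy-PEG (edgeR, adjusted p = 0.336 and 0.189), and that of antimiR-195 was -0.21 without its replicate 2.
Cry2 (ENSMUSG00000068742, chr2:92403646-92434043, minus strand), the second cryptochrome, had 35.1, 23.5, 28.4 and 23.3 CPM in antimiR-195, 26.7, 28.5, 32.1 and 38.3 CPM in Upy-PEG and 44.7, 48.2, 46.2 and 34.8 CPM in PBS. PBS replicate 4, the lowest of its group, was the one PBS library that hydrogel libraries overlapped. The log2 fold change of Cry2 was -0.66 ± 0.16 in antimiR-195 against PBS, with an unadjusted p of 0.000963 and an adjusted p of 0.253 in edgeR. In Upy-PEG against PBS it was -0.47 ± 0.16 (edgeR, adjusted p = 0.194). Exons of Cry2 overlap those of D930015M05Rik on the other strand. The kit marked strand, but the strand setting of the counting is not given in the sources used here, so reads of the pair may not be told apart.
Ciart (ENSMUSG00000038550, chr3:95878503-95882251, minus strand) had 12.6, 7.40, 12.4 and 2.94 CPM in antimiR-195, 3.79, 7.73, 11.7 and 13.7 CPM in Upy-PEG and 17.5, 14.2, 16.1 and 15.2 CPM in PBS. Both hydrogel groups lay below PBS, and antimiR-195 replicate 4 and Upy-PEG replicate 1 were the lowest. The log2 fold changes of Ciart against PBS were -0.84 ± 0.40 in antimiR-195 and -0.77 ± 0.40 in Upy-PEG (edgeR, adjusted p = 0.307 and 0.438), the widest errors of the 9 genes. They were -0.54 without antimiR-195 replicate 4 and -0.50 without Upy-PEG replicate 1.

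Of the PAR bZIP genes, Dbp (ENSMUSG00000059824, chr7:45705088-45710203, plus strand) encodes the D-box factor of widest daily swing in most tissues. It had 209.5, 209.8, 240.5 and 57.9 CPM in antimiR-195, 85.0, 146, 151 and 195.4 CPM in Upy-PEG and 265, 178, 187 and 181 CPM in PBS. In antimiR-195, 3 of 4 libraries lay within the PBS range and replicate 4 far below it. The log2 fold change of Dbp against PBS was -0.18 ± 0.35 in antimiR-195 and -0.49 ± 0.35 in Upy-PEG (edgeR, adjusted p = 0.793 and 0.619). The antimiR-195 value rested on single libraries: it was 0.12 without antimiR-195 replicate 4, -0.02 without PBS replicate 1, -0.27 without antimiR-195 replicate 1, -0.35 without replicate 3 and -0.60 without replicates 2 and 3. The Upy-PEG value was -0.30 without Upy-PEG replicate 1. Exons of Dbp overlap those of Sphk2 on the other strand, with the same limit as for Cry2.
Tef (ENSMUSG00000022389, chr15:81802421-81826863, plus strand) had 202, 149, 214 and 101 CPM in antimiR-195, 113, 149.7, 168 and 210.3 CPM in Upy-PEG and 229.9, 258, 252 and 237 CPM in PBS. PBS libraries were close together and above every hydrogel library. The log2 fold changes of Tef against PBS were -0.55 ± 0.22 in antimiR-195 and -0.61 ± 0.22 in Upy-PEG (edgeR, adjusted p = 0.269 and 0.227). Antisense exons of Gm17597 overlap those of Tef.
Hlf (ENSMUSG00000003949, chr11:90336536-90390895, minus strand) had 47.4, 27.5, 41.2 and 25.9 CPM in antimiR-195, 25.4, 33.0, 32.1 and 43.1 CPM in Upy-PEG and 45.6, 49.9, 59.2 and 54.2 CPM in PBS. Upy-PEG lay below PBS, and antimiR-195 replicate 1 alone of its group passed PBS replicate 1. The log2 fold changes of Hlf against PBS were -0.56 ± 0.20 in antimiR-195 and -0.65 ± 0.20 in Upy-PEG (edgeR, adjusted p = 0.253 and 0.156).

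**Figure D2:**
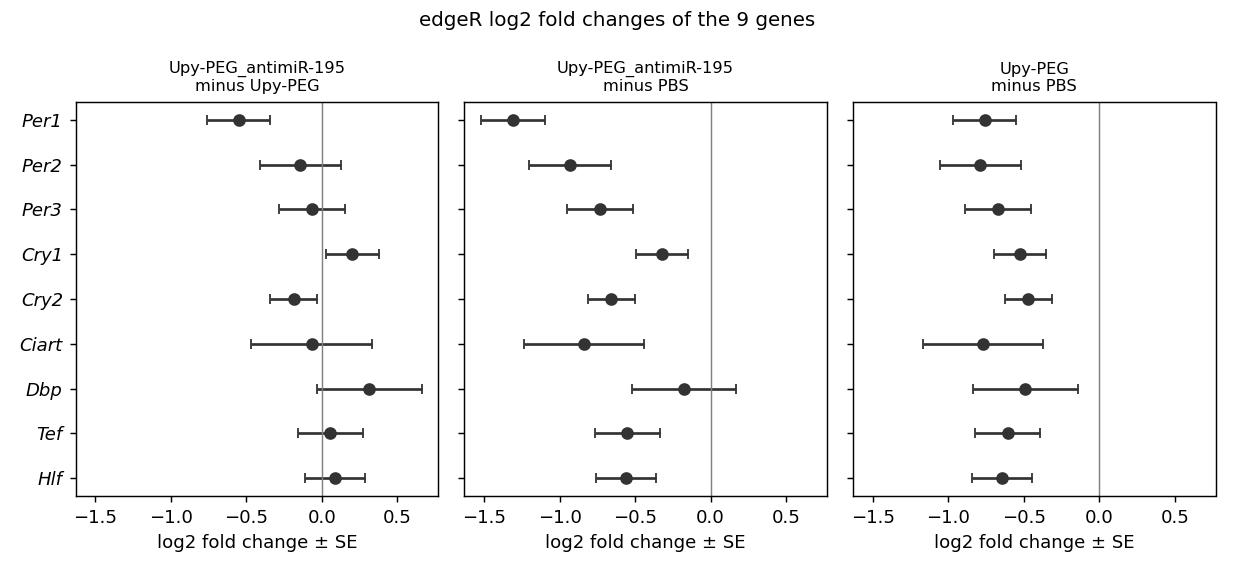
edgeR log2 fold change of each gene with its SE (horizontal axis) for antimiR-195 minus Upy-PEG, antimiR-195 minus PBS and Upy-PEG minus PBS. Against PBS all 9 points lie left of 0 in both panels, from -1.31 to -0.18 in antimiR-195 and from -0.79 to -0.47 in Upy-PEG, while against Upy-PEG 5 lie left and 4 right (Tef and Hlf turn when libraries are scaled by their totals alone).

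Comparing antimiR-195 with Upy-PEG asks what the drug adds to the gel. In this and the following comparisons, hour of collection and batch are not in the labels and cannot be told apart from treatment. Of the 9 members, 5 were lower and 4 higher, where 50.8% of all genes were lower. Their median log2 fold change was -0.07, beside -0.01 over all genes tested. Of the 4, Tef and Hlf were lower instead when libraries were scaled by their totals alone, and Tef and Dbp without antimiR-195 replicates 2 and 3. The number with an adjusted p under 0.05 in edgeR was 0, against 0% of all genes. At an unadjusted p under 0.05, 1 member was lower (Per1), against 6.4% of all genes, and 0 were higher, against 6.67%. DESeq2 called 13 genes, none of them a member. No member's antimiR-195 libraries lay wholly below Upy-PEG, against 2.46% of all genes. Without antimiR-195 replicates 2 and 3, 0 members were lower at an unadjusted p under 0.05, against 6.61% of genes, and the median was -0.10. Then 0 members lay wholly below Upy-PEG, against 10.8% of genes. The log2 fold changes without them were -0.09 for Per2, -0.14 for Per3, 0.31 for Cry1, -0.10 for Cry2, -0.26 for Ciart and 0.13 for Hlf. Those of Per1, Tef and Dbp are given elsewhere. Apart from Per1, the log2 fold changes ran from -0.19 ± 0.16 for Cry2 to 0.31 ± 0.35 for Dbp (edgeR, adjusted p from 0.568 to 0.944).

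Comparing antimiR-195 with PBS asks what gel and drug do together against the injection alone. All 9 members were lower, against 49.2% of all genes, with a median log2 fold change of -0.66, beside 0.01 over all genes. In edgeR, 0 members and 0% of all genes had an adjusted p under 0.05, and the smallest adjusted p of any gene was 0.235. At an unadjusted p under 0.05, 6 of 9 members were lower, against 7.89% of all genes. For 5 members (Per1, Per2, Per3, Ciart and Tef) the antimiR-195 libraries lay wholly below PBS, against 3.32% of all genes. Without antimiR-195 replicates 2 and 3, 5 members were lower at an unadjusted p under 0.05, against 2.28% of genes, and 5 lay wholly below PBS, against 7.09%. The members' log2 fold changes were then -0.88 for Per2, -0.80 for Per3, -0.21 for Cry1, -0.57 for Cry2, -1.03 for Ciart, -0.68 for Tef and -0.51 for Hlf, beside those of Per1 and Dbp above. DESeq2, which called 95 genes, called Per1 and Cry2.

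Comparing Upy-PEG with PBS asks what the gel alone does. All 9 members were again lower, against 55.3% of all genes, with a median log2 fold change of -0.65, beside -0.03 over all genes. This comparison shares its PBS libraries with the one before. In edgeR, 0 members and 0% of all genes passed the adjusted threshold, with a smallest adjusted p of 0.0809. At an unadjusted p under 0.05, 7 of 9 members were lower (all but Ciart and Dbp), against 3.83% of all genes. For 5 members (Per1, Per3, Ciart, Tef and Hlf) the Upy-PEG libraries lay wholly below PBS, against 3.77% of all genes. DESeq2, which called 505 genes, called Per1.

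With both hydrogel groups pooled against PBS, the median log2 fold change of the 9 members was -0.60, beside 0.00 over all genes. In edgeR, 0 members and 0% of all genes passed the adjusted threshold. At an unadjusted p under 0.05, 8 of 9 members were lower (all but Dbp), against 6.57% of all genes. Per1, Per3, Ciart and Tef lay wholly below PBS, against 1.22% of all genes. The log2 fold change of Per1 was -1.03 ± 0.18, with an adjusted p of 0.135 in edgeR, and was -0.88 without antimiR-195 replicates 2 and 3, while that of Dbp was -0.33 with and -0.54 without them. Without them, 8 members were lower at an unadjusted p under 0.05, against 4.53% of genes, and 4 lay wholly below PBS, against 1.54%. DESeq2, which called 367 genes, called Per1, Per2, Per3, Cry2 and Hlf.

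The members spread more widely among hydrogel libraries than among PBS libraries. The coefficient of variation of CPM over 4 libraries was 17.3% to 52.1% in antimiR-195, 16.3% to 47.7% in Upy-PEG and 5.42% to 20.6% in PBS, lowest for Tef in PBS and highest for Ciart in antimiR-195. It was larger than in PBS for 9 of 9 members in antimiR-195, against 72.9% of all genes tested, and for 9 of 9 in Upy-PEG, against 49.1%. The median coefficient over the members was 31.1% in antimiR-195, 22.5% in Upy-PEG and 11.1% in PBS, beside 19.5%, 13.5% and 13.5% over all genes in the same groups.

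Within a group, the low libraries were often the same for several members. Relative to the PBS mean of each gene, the median over the 9 members was 80.6%, 52.6%, 78.9% and 41.5% in antimiR-195 replicates 1 to 4, 45.8%, 61.3%, 70.4% and 86.1% in Upy-PEG replicates, and 94.7% to 103% in PBS replicates. Upy-PEG replicate 1, the library of highest fibroblast and lowest cardiomyocyte marker sums, was the lowest of its group for 9 of 9 members, and replicate 4 the highest for 8 of 9. In antimiR-195, replicate 4 was lowest for 6 of 9 members but highest for Per1 and Cry1, and replicate 2 was lowest for the other 3. Cardiomyocyte marker sums were 56574 CPM in antimiR-195 replicate 4 and 54723 CPM in replicate 2, and fibroblast sums 1524 and 2024 CPM. A link between marker sums and member levels was not tested. Of all 12 libraries, antimiR-195 replicate 4 was lowest for 5 members, Upy-PEG replicate 1 for 3 and antimiR-195 replicate 2 for 1, and the highest was a PBS library for 9 of 9. Lowest and highest libraries were not counted over all genes, so these counts do not set the members apart from other genes.

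**Figure D3:**
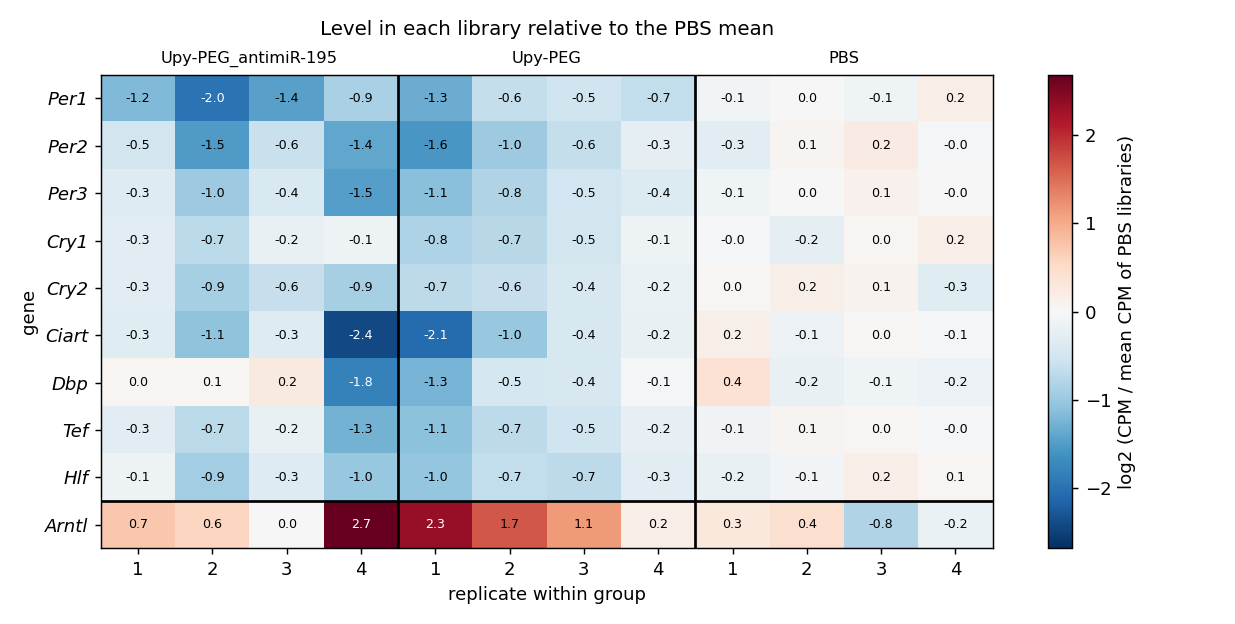
log2 of each library's CPM over the mean CPM of the PBS libraries (colour and printed value) for the 9 genes and Arntl (lower line), with the libraries of antimiR-195, Upy-PEG and PBS from left to right. The darkest blue columns, antimiR-195 replicate 4 and Upy-PEG replicate 1, are the libraries with the darkest red Arntl cells, at 13.6 and 10.7 CPM.

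Arntl encodes BMAL1, which drives these genes, and its mRNA runs roughly opposite in phase to the PAR bZIP mRNAs. Arntl was highest in the 2 libraries with the lowest member medians, antimiR-195 replicate 4 and Upy-PEG replicate 1. It had 3.48, 3.18, 2.15 and 13.6 CPM in antimiR-195, 10.7, 6.74, 4.68 and 2.40 CPM in Upy-PEG and 2.57, 2.84, 1.21 and 1.87 CPM in PBS. The antimiR-195 replicate 4 and Upy-PEG replicates 1 to 3 stood above all PBS libraries by the widest margins, while antimiR-195 replicate 3 and Upy-PEG replicate 4 lay within the PBS range. In antimiR-195 replicate 2, whose member median was 52.6% of PBS, Arntl was at 3.18 CPM, above but near the PBS range. The log2 fold change of Arntl against PBS was 1.41 ± 0.57 in antimiR-195 and 1.53 ± 0.56 in Upy-PEG (edgeR, adjusted p = 0.273 and 0.242). In antimiR-195 against Upy-PEG it was -0.12 ± 0.53 (edgeR, adjusted p = 0.921). Without antimiR-195 replicates 2 and 3 these antimiR-195 values were 2.02 against PBS and 0.48 against Upy-PEG. Across the 12 libraries, the mean standardised log2 CPM of the 9 members had a Pearson r of -0.86 with Arntl, a description over libraries that also carry the group differences.

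The members' own r with that mean, to which each contributes, was 0.98 for Per3 and Per2, 0.97 for Tef and Hlf, 0.94 for Ciart and 0.91 for Cry2. It was 0.73 for Cry1, 0.72 for Per1 and 0.71 for Dbp. Per1 and Cry1 were the members highest in antimiR-195 replicate 4 within that group, and Dbp was above the PBS mean in the other 3 antimiR-195 libraries.

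Of genes outside the list, those with the highest r with the members' mean over the 12 libraries were Ogdhl (0.951), Kcnj5 (0.940) and Cdk18 (0.935). Ogdhl, an oxoglutarate dehydrogenase-like enzyme, averaged 144 ± 29.4 CPM in antimiR-195, 141 ± 31.0 CPM in Upy-PEG and 196 ± 11.7 CPM in PBS (SD, n = 4). Kcnj5, a subunit of the acetylcholine-gated potassium channel, averaged 65.3 ± 4.15 CPM in antimiR-195, 66.4 ± 5.55 CPM in Upy-PEG and 79.2 ± 4.50 CPM in PBS. Cdk18, a cyclin-dependent kinase, averaged 23.9 ± 1.46 CPM in antimiR-195, 24.2 ± 2.21 CPM in Upy-PEG and 29.8 ± 1.70 CPM in PBS. These 3 genes were thus lower in both hydrogel means than in PBS, as the members were. The lowest r were those of Rcan1 (-0.968), Tnnt3 (-0.932) and Nppa (-0.908). Rcan1, a calcineurin regulator, averaged 118 ± 27.0 CPM in antimiR-195, 104 ± 24.2 CPM in Upy-PEG and 70.8 ± 3.63 CPM in PBS. Tnnt3, the troponin T of fast skeletal muscle, averaged 1.76 ± 0.640 CPM in antimiR-195, 2.22 ± 1.22 CPM in Upy-PEG and 0.590 ± 0.118 CPM in PBS. Nppa, which encodes atrial natriuretic peptide, averaged 877 ± 335 CPM in antimiR-195, 975 ± 305 CPM in Upy-PEG and 322 ± 66.0 CPM in PBS. The libraries share depth and the group differences, and these r carry no test.

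Levels of different genes were compared in the authors' RPKM, which divides by gene length. In PBS the order was Dbp (68.2 ± 15.5 RPKM), Tef (30.7 ± 1.09), Per1 (15.5 ± 1.39), Hlf (7.72 ± 0.891), Per3 (7.14 ± 0.477), Ciart (6.88 ± 0.789), Cry2 (6.79 ± 0.875), Per2 (6.39 ± 0.926) and Cry1 (3.99 ± 0.550; SD, n = 4). The ranges of neighbours from Hlf to Per2 overlapped, so their order is not set by these libraries, while Dbp, Tef and Per1 stood apart from their neighbours and Cry1 below Per2. In antimiR-195 Dbp led at 57.3 ± 25.3 RPKM, then Tef at 20.01 ± 5.51 RPKM and Per1 at 6.07 ± 2.06 RPKM. In Upy-PEG the same 3 were at 51.4 ± 14.3, 21.4 ± 4.50 and 9.77 ± 1.82 RPKM. Per1 was nearer to Hlf in antimiR-195, where Hlf had 5.03 ± 1.32 RPKM, than in Upy-PEG, where Hlf had 5.26 ± 0.971 RPKM, or in PBS.

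**Figure D4:**
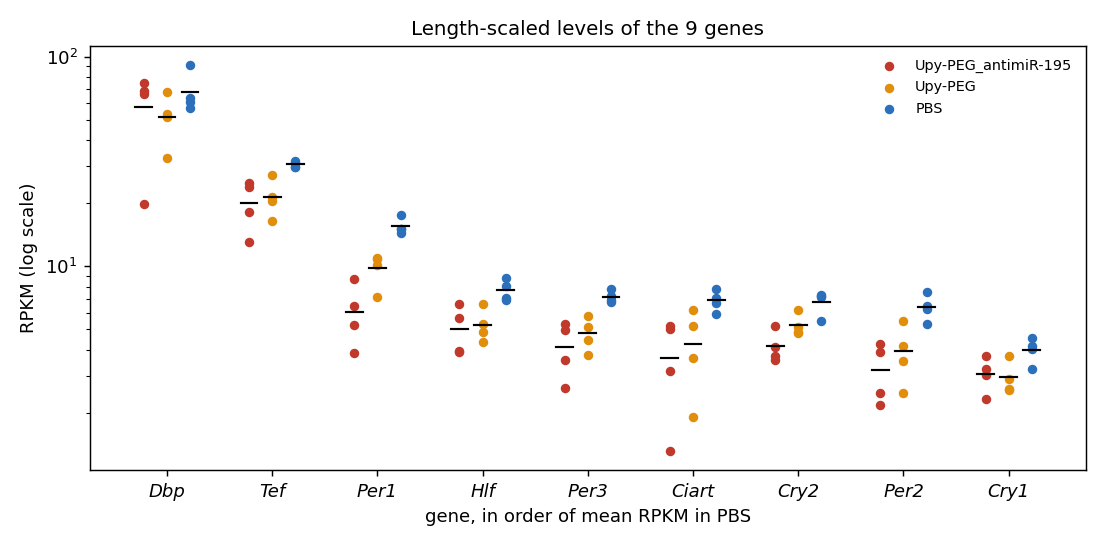
RPKM of each gene (log axis) in every library of antimiR-195, Upy-PEG and PBS, with genes in order of their PBS mean and a bar at each group mean. Dbp and Tef lead in all 3 groups, and Hlf, Per3, Ciart, Cry2 and Per2 lie close together between 6.39 and 7.72 RPKM in PBS.

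The other arms of the clock were counted from lists of named genes. In the list of activators and the nuclear receptor loop around Arntl, 13 of 13 genes were tested, and in antimiR-195 against PBS 6 were lower and 7 higher, with a median log2 fold change of 0.01. Of all genes, 49.2% were lower there, with a median of 0.01. None of the 13 had an adjusted p under 0.05 in edgeR, and at an unadjusted p under 0.05, 0 were lower and 2 higher (Arntl, and Rorb at 0.79 ± 0.33 on the log2 scale), where 8.65% of all genes were higher. In Upy-PEG against PBS 8 were lower and 5 higher, with a median of -0.05, where 55.3% of all genes were lower, with a median of -0.03. At an unadjusted p under 0.05, Arntl was higher, where 9.33% of all genes were higher. The REV-ERB genes Nr1d1 and Nr1d2, which repress Arntl, had log2 fold changes of 0.01 and -0.21 in antimiR-195 and of -0.02 and -0.25 in Upy-PEG against PBS (edgeR, adjusted p from 0.475 to 0.979).

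Among 8 genes for kinases and ubiquitin ligases that act on PER and CRY proteins and for their partner Timeless, all tested, 7 were lower and 1 higher in antimiR-195 against PBS, and likewise 7 and 1 in Upy-PEG against PBS, with medians of -0.12 and -0.07. Of all genes, 49.2% and 55.3% were lower in these comparisons, with medians of 0.01 and -0.03. Csnk1e, which encodes a casein kinase that marks PER proteins for degradation, averaged 48.1 ± 5.20 CPM in antimiR-195, 48.0 ± 1.94 CPM in Upy-PEG and 57.6 ± 5.62 CPM in PBS. Its log2 fold changes against PBS were -0.26 ± 0.10 in both groups (edgeR, adjusted p = 0.271 in antimiR-195 and 0.270 in Upy-PEG). The related Csnk1d averaged 65.9 ± 2.92 CPM in antimiR-195, 72.8 ± 2.53 CPM in Upy-PEG and 74.4 ± 0.842 CPM in PBS. Against PBS it lay wholly below in antimiR-195, as did 3.32% of all genes, with a log2 fold change of -0.17 ± 0.08, while in Upy-PEG the value was -0.03 ± 0.08 (adjusted p = 0.285 and 0.911 in edgeR). In this list 2 genes were lower at an unadjusted p under 0.05 in antimiR-195 (Csnk1e and Csnk1d), where 7.89% of all genes were lower, and 1 in Upy-PEG (Csnk1e), where 3.83% were.

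Of 10 clock-controlled genes outside the loop, all tested, 9 were lower and 1 higher against PBS in each hydrogel group, with medians of -0.19 in antimiR-195 and -0.24 in Upy-PEG. The share of all genes that were lower was 49.2% in antimiR-195 and 55.3% in Upy-PEG, with medians of 0.01 and -0.03. At an unadjusted p under 0.05, 3 of the 10 were lower in antimiR-195, where 7.89% of all genes were lower (Wee1, Pdxk at -0.27 and Por at -0.31 on the log2 scale) and 3 in Upy-PEG, where 3.83% were (Klf15, Tsc22d3 at -0.45 and Usp2 at -0.41). Wee1, a kinase that holds back mitosis and carries E-boxes in mice, averaged 7.04 ± 1.96 CPM in antimiR-195, 8.09 ± 1.16 CPM in Upy-PEG and 10.5 ± 1.67 CPM in PBS, and its log2 fold change in antimiR-195 against PBS was -0.57 ± 0.19 (edgeR, adjusted p = 0.253). Klf15, a factor that sets daily rhythms of metabolism and ion channels in mouse heart, averaged 42.9 ± 7.91 CPM in antimiR-195, 37.5 ± 7.57 CPM in Upy-PEG and 54.5 ± 8.45 CPM in PBS. Its log2 fold change in Upy-PEG against PBS was -0.54 ± 0.16 (edgeR, adjusted p = 0.154). Pdxk, the pyridoxal kinase whose gene PAR bZIP factors activate in mice, averaged 23.4 ± 1.75 CPM in antimiR-195, 26.5 ± 1.003 CPM in Upy-PEG and 28.2 ± 3.79 CPM in PBS. Rorb (in the comparisons with PBS), Csnk1d, Por, Tsc22d3, Usp2, Nr1d1 and Nr1d2 were named here after their values were seen.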

How the data were processed

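RNA was measured in 12 left ventricle libraries, 4 per group, made from snap-frozen tissue with a stranded mRNA kit, per the labels' protocols. STAR, HTSeq and DESeq, with the build GRCm38, are named in the submitters' processing notes; their versions and the gene annotation behind the counts are not given in the sources used here. The authors deposited raw read counts per gene and RPKM values (reads scaled by gene length and library total, by the authors). Of 459516 cells of the series table, 459516 were equal to those of the per-sample files. The counts were tested in R 4.3.3 with edgeR 4.0.16 and limma 3.58.1, using filterByExpr by group, TMM scaling, a model of 3 group means over 12 libraries (9 residual degrees of freedom), with p-values adjusted by the Benjamini-Hochberg method across 14770 genes and read at 0.05. The SE given with an edgeR log2 fold change is the size of that change divided by the square root of the test's F statistic. The steps were tested on simulated data. Groups come from the source labels. Replicates are numbered in accession order, and nothing says they are separate animals, so p-values measure the spread between these samples only. The members and gene lists were chosen with earlier results of these data known. The 9 members and Arntl are named throughout, with list genes among the 3 of lowest p per comparison (one result is not reported here) and the 3 genes of highest and 3 of lowest Pearson r with the members' mean log2 CPM (prior count 2). Alternatives were RLE and plain library-size scaling, DESeq2 1.42.0, no filter or a minimum mean CPM of 1, voom weighted by sample, a trended limma fit of log2(RPKM + 0.1), a fit of only the libraries compared, and each library left out. Leaving out both length-biased libraries, or adding the length slope as a covariate, was chosen after seeing the data.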

Additional observations from a re-analysis of the deposited data

Results flagged for a closer look

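Within each group of 4 libraries, the gap of the lowest or highest library to its nearest neighbour was divided by the group's range and set against Dixon's 95% critical value for 4 samples, in 27 groups (9 genes in 3 groups). Chance gives about 1 such group in 20, and 2 of the 27 passed. Dbp in antimiR-195 had a ratio of 0.831 for its lowest library, replicate 4, at 57.9 CPM, where the other libraries had 209.5 to 240.5 CPM. Dbp in PBS had a ratio of 0.894 for its highest library, replicate 1, at 265 CPM, where the others had 178 to 187 CPM. Mitochondrially encoded genes took 12.3% of the counts in PBS replicate 1 and 18.7% to 19.5% in the other PBS libraries. Its erythroid marker sum, 170.3 CPM, was the highest of the 12 libraries. A link of these values to Dbp was not tested.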

How the results depend on the processing

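The alternatives are refits of the same libraries, and some leave out a library outside the comparison. The pooled comparison averages the other comparisons with PBS, so the values counted next are not independent. Against PBS, 584 of 585 values of the 9 members over all alternatives kept a lower mean in the hydrogel groups. The exception was Dbp in antimiR-195, whose log2 fold change ran from -0.351 to 0.118 with 1 library left out. Dbp was also lowest with the length slope as a covariate, at -0.7321 in antimiR-195 and -0.6722 in both groups, and was -0.3943 in antimiR-195 by limma-trend on RPKM. In antimiR-195 against Upy-PEG, where no member was called, directions changed: with 1 library left out, Ciart ran from -0.333 to 0.228, Per2 from -0.335 to 0.0814, Per3 from -0.236 to 0.118, Hlf from -0.096 to 0.234 and Tef from -0.0945 to 0.232. Library size alone gave -0.0664 for Hlf and -0.0983 for Tef, limma-trend on RPKM gave -0.0834 and -0.1195, and these scalings moved the median of all genes to -0.16. Without both length-biased libraries, Tef was -0.0812 and Dbp -0.1131, and with the length slope as a covariate Tef was -0.063 and Dbp -0.1198. Calls at an adjusted p under 0.05, 0 in each comparison as reported, depended on the tool. DESeq2 called 13 genes in antimiR-195 against Upy-PEG, and against PBS 95 in antimiR-195, 505 in Upy-PEG and 367 in both, with 2, 1 and 5 members. Limma voom called 1, 918 and 4 genes in the same order, with 1, 5 and 1 members. With no filter, 1, 69 and 6 genes were called, with 1, 0 and 1 members. In Upy-PEG against PBS, 172 genes were called with only the libraries compared, 0 to 150 with 1 library left out (46 without Upy-PEG replicate 3, 150 without antimiR-195 replicate 2), 349 without both length-biased libraries and 343 with the covariate. Members called were 1, 0 to 1, 1 and 0 in the same order, and the 1 was Per1 each time. No paired analysis was possible because the labels share no replicate numbers between groups. Depth gave at least 76 counts per member and library; the cause of these changes was not tested.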
